A study of Mus musculus with 3 samples.

Results

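Messenger RNA of 7 intermediate filament genes, Nefl, Nefm, Nefh, Ina, Prph, Nes and Vim, was followed in NSC-34 cells that had become resistant to PR20. The genes were taken by name from a count table of 22976 genes, and all 7 passed the filter on low counts that left 13705 genes for testing. Enough reads in a single library sufficed to pass, and Nefl and Nefm passed through the untreated library alone. The NSC-34 line is a mouse hybrid, made by fusing neuroblastoma with motor neuron-enriched tissue of the embryonic spinal cord. PR20 is an arginine- and proline-rich repeat peptide, of the kind translated from the C9ORF72 repeat expansion. Untreated wild-type cells, called the control here, gave 1 library. There were 2 libraries of spontaneously resistant cells, labelled clone 1 and clone 2, from the same wild-type line with 10 µM PR20 given for 3 weeks. Each resistant library represents 1 clone, and clonal origin, resistance and exposure to the peptide cannot be told apart in this design.

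Intermediate filaments are rope-like polymers of proteins that share a central alpha-helical rod. In axons the light, medium and heavy neurofilament proteins (Nefl, Nefm and Nefh) assemble with alpha-internexin (Ina) or peripherin (Prph) into filaments that help to set axon calibre, and neurofilament protein in body fluids is used as a marker of axonal damage in motor neuron disease. Vimentin (Vim) forms filaments in mesenchymal and immature neural cells, and nestin (Nes), a marker of neural progenitors, assembles with it. Nefl, Nefm, Nefh, Ina and Nes belong to type IV of the family, and Prph and Vim to type III.

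The 7 genes have separate models that differ in build. No run of 50 bases in the transcript used for any of them occurred, in the same orientation, in a transcript of another gene in the Gencode M21 annotation. The reverse complement was not searched, so this check does not cover overlaps with genes on the opposite strand. On GRCm38, in the Gencode M21 annotation, Nefl (ENSMUSG00000022055.7) spans 68083863 to 68089095 of chromosome 14 and Nefm (ENSMUSG00000022054.11) spans 68082590 to 68124846 of the same chromosome on the opposite strand. Nefh lies on chromosome 11 (4938754 to 4948064), Ina on chromosome 19 (47014698 to 47025327), Nes on chromosome 3 (87971078 to 87980451), Prph on chromosome 15 (99055174 to 99058978) and Vim on chromosome 2 (13573927 to 13582826). The transcript with the longest coding sequence has 3 exons in Nefm and Ina, 4 in Nefl, Nefh and Nes, 8 in Prph and 9 in Vim. An alternative transcript of Nefm overlaps 1108 exonic bases of Nefl (32.8% of its exonic length), and Nt5c2 overlaps 456 exonic bases of Ina, in both cases from the opposite strand. Because the sources used here do not give the strand setting of the counting, reads in these overlaps may have been assigned to either gene or omitted.

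The control held 11700755 gene counts, and the clones held 11389663 and 11307034. Levels are given as TMM-scaled CPM (gene counts relative to library size), and 3 reads corresponded to between 0.250 and 0.270 CPM. The clones differed from each other by more than counting noise (chi-square per degree of freedom 2.36 over 13335 genes). No label ties the clones to separate cultures. The p-values therefore measure spread between these libraries alone, and that spread may be technical. Of the motor neuron markers, Chat had 7 reads in the control and 0 in each clone. Isl1 had 72, 23 and 17 reads in the control, clone 1 and clone 2. In the same order, Slc18a3 had 113, 3 and 1 reads and Isl2 had 85, 38 and 33. Mnx1 had 1, 1 and 3 reads and Lhx3 had 1, 0 and 0. The sympathetic neuroblast markers had reads in every library for 7 of 7 genes, and their sum was 1022 CPM in the control, 597 in clone 1 and 521 in clone 2. The general neuron markers, of which Nefl is one, summed to 1154, 283 and 273 CPM. In the edgeR test described below, 5 of 5 tested were lower, against 25.8% of all genes tested. These neuron markers moved with the neurofilament genes described next, and their part in those results was not tested. Of the remaining marker lists, fibroblasts and mesenchyme summed to 96.4, 85.2 and 114 CPM, and the others were low in every library. Astrocytes had 17.5, 7.48 and 8.45 CPM, oligodendrocytes and Schwann cells 6.57, 5.34 and 3.96, and microglia 0.999, 1.16 and 1.80. Epithelium had 13.4, 12.6 and 17.7 CPM, muscle 2.58, 4.90 and 3.78, and endothelium 32.0, 15.7 and 17.7. The motor neuron markers summed to 23.2, 5.79 and 4.85 CPM.

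The 4 neuronal filament genes Nefl, Nefm, Nefh and Ina fell in the resistant clones, whereas Nes and Vim rose slightly and Prph did not pass the test. In edgeR's quasi-likelihood test with Benjamini-Hochberg adjustment at 0.05, 4 of 7 members were lower, against 25.8% of all genes tested. The same test placed 2 of 7 members higher, against 24.3% of all genes tested. With 50.1% of the transcriptome called in either direction, the counts of calls say little about these genes, and it is the size of the 4 falls that sets them apart from most genes: each exceeded 8-fold, a fall reached by 2.26% of all genes tested (a threshold chosen after the values were seen). The median log2 fold change over the 7 members was -3.95, which is the value of Ina, while Prph, Nes and Vim lay between 0.09 and 0.34. Over all genes tested the median was 0.002. Without the filter on low counts edgeR called 0 of the 7 in either direction (adjusted p between 0.0719 and 0.261, with 6 of 7 at an unadjusted p under 0.05). That setting called only 4 of all 22976 genes lower and 0 higher, so the loss of calls is not particular to the members. DESeq2 called Nefl, Nefm, Nefh and Ina lower, against 9.7% of all genes, and only Vim higher, against 9.89%. With a preset variation of 20% the same 4 were lower, against 7.24% of all genes, and no member was higher, against 1.14%. These are bulk samples, in which fewer cells of a type and less RNA per cell cannot be told apart.

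**Figure D1:**
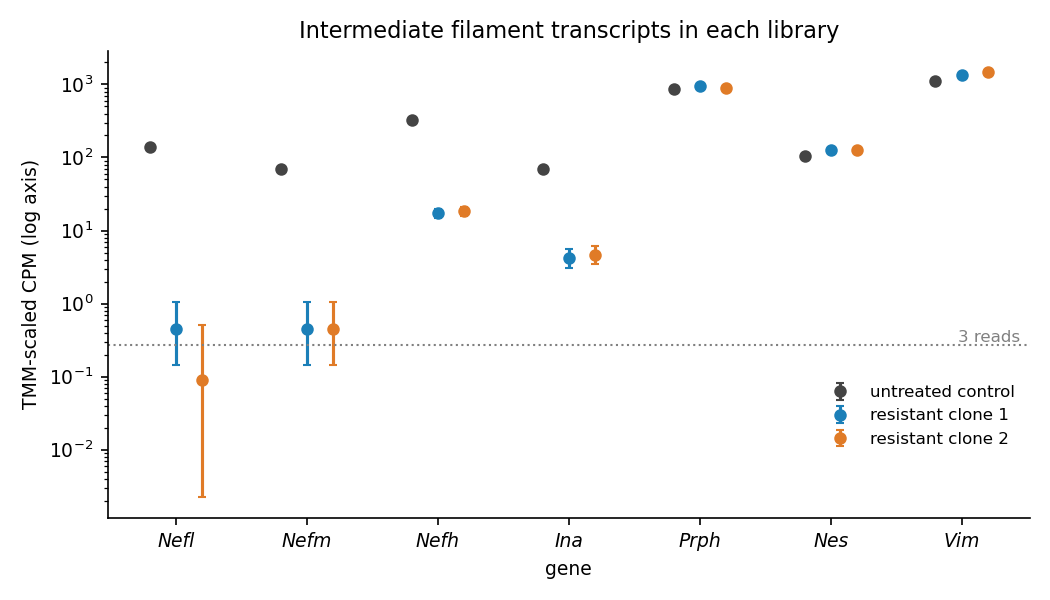
Level of each gene (TMM-scaled CPM, log axis) in the control and in each clone. Points are single libraries, bars are 95% Poisson intervals for counting error only, and the dotted line marks 3 reads. Nefl, Nefm, Nefh and Ina sit far lower in both clones, while Prph, Nes and Vim lie close to the control.

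Nefl, which encodes the light chain that neurofilaments need to assemble, had 1673 reads in the control, 5 in clone 1 and 1 in clone 2. These correspond to 139 CPM in the control, 0.445 CPM in clone 1 and 0.0899 CPM in clone 2. Both clones were near the limit of detection at this depth, far below the control. The log2 fold change was -8.96 ± 0.18 (SE; edgeR adjusted p = 2.68e-15). Over the 6 reads of both clones together, the level was 519-fold lower (95% exact interval 238 to 1415, counting error only). That interval is wider than the SE implies, so the SE overstates the precision of the fall. The authors' deposited DESeq2 table gives an SE of 1.42 for Nefl. The fitted value depends on which clone is used: it was -8.25 without clone 2 and -10.4 without clone 1.

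Nefm encodes the medium chain, whose long tail projects from the filament. It had 845 reads in the control (70.3 CPM) and 5 reads in each clone (0.445 CPM and 0.449 CPM). The clones were alike to within a read, and each lay far below the control. The log2 fold change was -7.26 ± 0.20 (SE; edgeR adjusted p = 6.68e-14), and the pooled clones were 157-fold lower (interval 85.0 to 329). As for Nefl, the SE is narrower than this counting interval implies. Per kilobase of transcript, the ratio of Nefl to Nefm was 1.95 in the control, 0.986 in clone 1 and 0.197 in clone 2. In the clones this ratio rests on 1 to 5 reads of each gene.

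Nefh, which encodes the heavy chain with its heavily phosphorylated tail, was the most abundant of the neurofilament genes in the control, with 3879 reads, and kept 193 reads in clone 1 and 205 in clone 2. Its levels were 323, 17.2 and 18.4 CPM. The clones therefore retained 5.52% of the control level, a residue well above the detection limit. The log2 fold change was -4.18 ± 0.07 (SE; edgeR adjusted p = 1.65e-16), or 18.1-fold lower (interval 16.3 to 20.1). The interval lies entirely below those of Nefl and Nefm, so Nefh fell by a smaller factor than either.

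Ina, the gene of alpha-internexin, which accompanies neurofilaments in central neurons, had 827 reads in the control, 47 in clone 1 and 52 in clone 2. These gave 68.8, 4.19 and 4.67 CPM, so the clones kept 6.44% of the control level. The log2 fold change was -3.95 ± 0.13 (SE; edgeR adjusted p = 4.87e-13), and the pooled clones were 15.5-fold lower (interval 12.6 to 19.3). The difference between the Ina and Nefh falls was not tested.

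Prph encodes peripherin, a filament protein of peripheral and motor neurons that can join neurofilaments. It had 10378 reads in the control, 10550 in clone 1 and 10017 in clone 2, or 864, 939.7 and 900.4 CPM. With TMM scaling the control was the lowest of the 3 libraries, and the clones exceeded it by 6.54% on average. The log2 fold change was 0.09 ± 0.05 (SE; edgeR adjusted p = 0.141). Leaving out either clone gave 0.06 or 0.12, so neither clone lay below the control with TMM scaling. By the authors' RPM, the control (887.0) and clone 2 (885.9) were nearly equal, and clone 1 stood at 926.3.

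Nes, the nestin gene, had 1250 reads in the control, 1409 in clone 1 and 1389 in clone 2, or 104.0, 125.5 and 124.9 CPM. Both clones were higher than the control by about the same amount, 20.3% on average, and the fitted log2 difference was 0.27 ± 0.06 (SE; edgeR adjusted p = 0.00209). DESeq2 did not call it (adjusted p = 0.176), and the call was also lost with a preset variation of 20% (edgeR likelihood ratio test, adjusted p = 0.839).

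Vim, the vimentin gene, had the most reads of the 7 in every library: 13241 in the control, 14978 in clone 1 and 16223 in clone 2. Its levels were 1102 CPM in the control, 1334 CPM in clone 1 and 1458 CPM in clone 2. Clone 2 was the highest, and both clones lay above the control, by 26.7% on average. The log2 fold change was 0.34 ± 0.06 (SE; edgeR adjusted p = 9.68e-05). DESeq2 also called it (adjusted p = 7.16e-05), but with a preset variation of 20% it was not called (edgeR likelihood ratio test, adjusted p = 0.759), so the call rests on the small spread between the clones, which the single control is assumed to share.

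**Figure D2:**
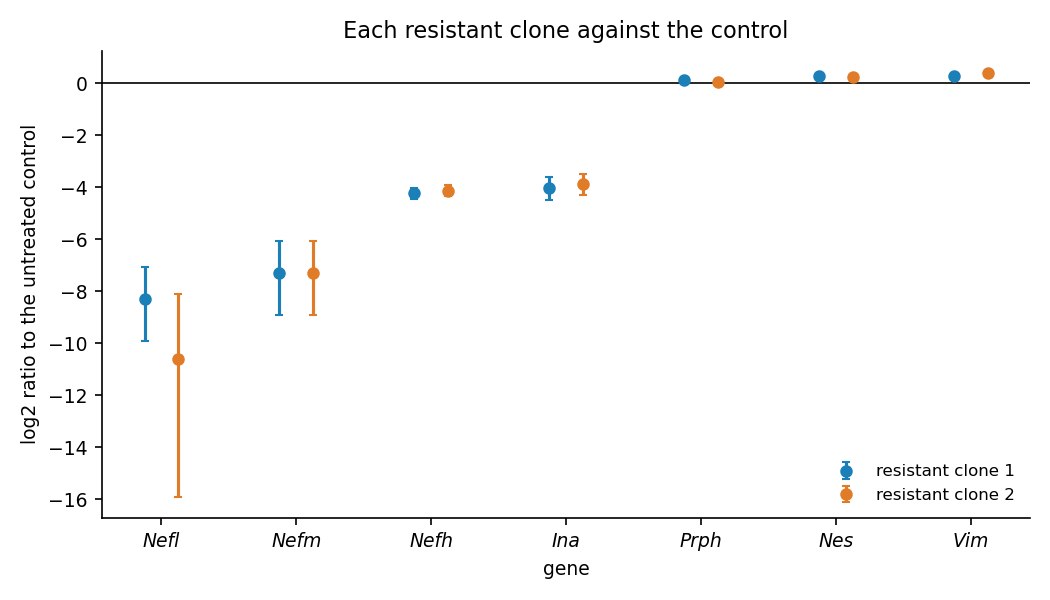
Log2 ratio of each clone's level to the control for the 7 genes. Bars are 95% exact intervals for counting error only, and both ratios of a gene share the control library. Nefl and Nefm lie lowest, Nefh and Ina lie near -4, and Prph, Nes and Vim lie just above 0.

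The authors' deposited table, made with DESeq2 from the same 3 libraries, lists absolute fold ratios of 523 for Nefl, 158 for Nefm, 18.3 for Nefh and 15.7 for Ina, all lower in the clones. Its standard errors for the log2 fold changes of these genes, 1.42, 0.53, 0.15 and 0.29 in that order, are larger than those from edgeR. For Prph, Nes and Vim the authors' deposited table gives log2 fold changes of 0.08, 0.26 and 0.33, with adjusted p-values of 0.525, 0.175 and 7.18e-05. An adjusted p under 0.05 is listed there for 19.8% of genes that have one. It is the same measurement analysed a second way and not an independent one.

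The summed level of the 7 genes was similar in the 3 libraries once transcript length was taken into account. Per kilobase of transcript, the 7 genes summed to 1147 CPM per kilobase in the control, 1139 in clone 1 and 1175 in clone 2. Nefl, Nefm, Nefh and Ina contributed 14.3% of that sum in the control, 0.515% in clone 1 and 0.529% in clone 2. The remainder was almost all peripherin and vimentin: Prph and Vim together made up 84.2% in the control and 97.7% in each clone. Without the correction for length, the 7 genes summed to 2671 CPM in the control, 2422 in clone 1 and 2507 in clone 2.

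**Figure D3:**
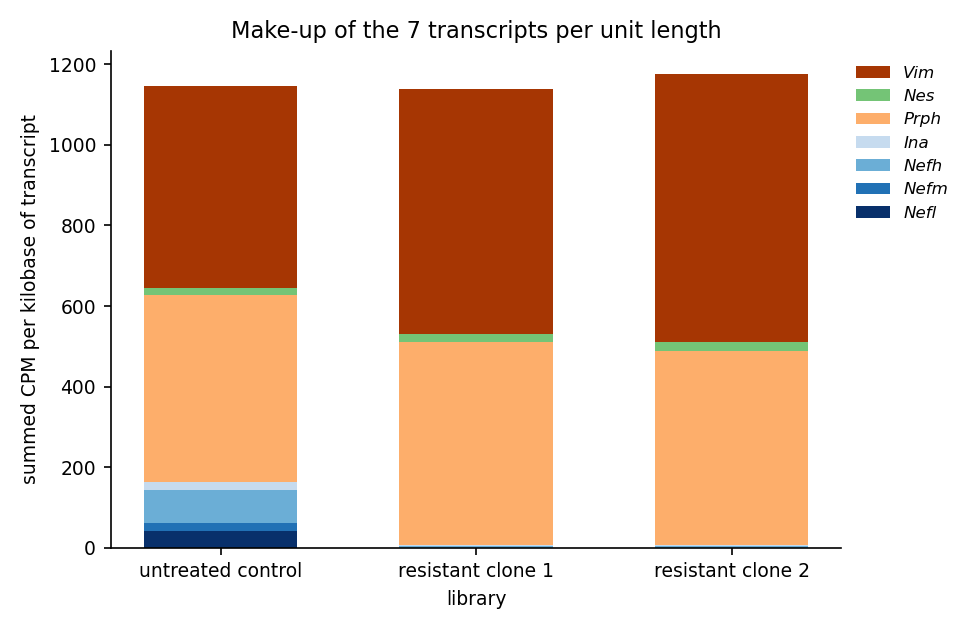
Summed level of the 7 genes per kilobase of transcript (CPM per kilobase) in each library, with 1 colour per gene. The bars are of similar height, between 1139 and 1175 CPM per kilobase, and the blue neurofilament and alpha-internexin segments, 14.3% of the control bar, are hardly visible in the clones.

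The order of the genes per kilobase changed accordingly. In the control it ran from Vim (502 CPM per kilobase) and Prph (464) through Nefh (80.8), Nefl (41.2), Ina (21.2) and Nefm (21.1) to Nes (17.0). Ina and Nefm did not differ beyond counting error. In clone 1 the order was Vim (608), Prph (504), Nes (20.5), Nefh (4.30) and Ina (1.29), with Nefm and Nefl at 0.134 and 0.132. Clone 2 gave the same order, with 665, 483, 20.4, 4.61, 1.44, 0.135 and 0.0266 CPM per kilobase. Among the tested genes that have a length, Nefl moved from the 84.2 percentile in the control to the 2.99 percentile in clone 1 and the 0.851 percentile in clone 2, and Nefh from 92.9 to 34.3 and 35.6. Prph stayed between 99.1 and 99.2 in all 3 libraries. Nefl is among the ranked genes through its control reads alone, whereas genes low in all 3 libraries were filtered out.

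The neurofilament chains also changed in proportion to each other. Of the reads of Nefl, Nefm and Nefh together, Nefh held 60.6% in the control (exact 95% interval 59.4 to 61.8). It held 95.1% in clone 1 (91.1 to 97.6) and 97.2% in clone 2 (93.9 to 98.9), so the little that remained was heavy-chain RNA. The light chain held 26.2% of these reads in the control, 2.46% in clone 1 and 0.474% in clone 2. The ratio of Prph to Nefl per kilobase was 11.3 in the control and 3828 in clone 1, where the denominator rests on 5 reads.

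The clones were close to each other for most of these genes. The ratio of clone 2 to clone 1 was 1.07 for Nefh (95% exact interval 0.876 to 1.31), 1.12 for Ina (0.738 to 1.69), 1.01 for Nefm (0.232 to 4.39) and 0.995 for Nes (0.923 to 1.07). These intervals include 1, so no difference was detectable at this depth. Vim was higher in clone 2 by a factor of 1.09 (1.07 to 1.12) and Prph lower at 0.958 (0.932 to 0.985), which exceeds counting error only, with 1 library a clone. With a prior count of 1, a 1.5-fold difference was passed by 1 of 7 members, Nefl at 5 against 1 read, and by 8.19% of all genes tested. The interval of the Nefl ratio of 0.202 reached from 0.00427 to 1.80.

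The sequence before the start site was available for 4 of the 7 genes in RefSeq's table for GRCm38.p6, and it is shown to set Ina, which fell, beside Prph, Nes and Vim, which did not. All are given on the plus strand, ending at or shortly before the RefSeq start. Capitals mark matches on either strand. The motif searched as the TATA box was TATAAA. The GC box was searched as GGGCGG. For the CCAAT box the letters CCAAT were used. The E-box was searched as CANNTG, and the site of the AP-1 factor was searched as TGANTCA. The printed matches do not overlap each other.
Ina, chr19:47014431-47014680: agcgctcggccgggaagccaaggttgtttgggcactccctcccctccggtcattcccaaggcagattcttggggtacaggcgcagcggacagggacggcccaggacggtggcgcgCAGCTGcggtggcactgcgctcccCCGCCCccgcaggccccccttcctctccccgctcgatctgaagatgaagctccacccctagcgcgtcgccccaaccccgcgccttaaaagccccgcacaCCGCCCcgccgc
Prph, chr15:99054924-99055173: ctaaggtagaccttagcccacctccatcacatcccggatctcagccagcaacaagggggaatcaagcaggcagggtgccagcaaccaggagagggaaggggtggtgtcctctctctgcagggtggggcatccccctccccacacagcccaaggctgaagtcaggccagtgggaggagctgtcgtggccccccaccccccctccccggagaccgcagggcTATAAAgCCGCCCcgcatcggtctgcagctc
Nes, chr3:87970843-87971077: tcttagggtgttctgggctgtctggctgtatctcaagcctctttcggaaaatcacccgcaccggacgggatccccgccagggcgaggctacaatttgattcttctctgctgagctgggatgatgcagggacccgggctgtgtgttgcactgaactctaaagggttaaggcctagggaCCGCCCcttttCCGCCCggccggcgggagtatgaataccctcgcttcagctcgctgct
Vim, chr2:13574267-13574296: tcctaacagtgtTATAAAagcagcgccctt
TATAAA began 31 bases before the start in Prph and 32 bases before it in Vim, and it occurs in 12.4% of the 32851 windows of 250 bases in the table. GGGCGG matched at 2 places in Ina, 1 in Prph and 2 in Nes, and it occurs in 32.7% of all windows. CANNTG matched once among the 4, in Ina, and occurs in 66.2% of all windows. CCAAT matched at 2 places in the Vim window, outside the printed bases, and occurs in 33.8% of all windows. TGANTCA, found in 6.75% of all windows, had no match in these 4. For Vim only 30 bases are printed, because its window lies in an annotated exon. These matches are descriptions of letters and not evidence of binding.

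Other members of the family were read from lists of related genes. Among type IV genes outside the 7, Synm, which encodes the linker-like filament protein synemin, fell from 75.4 CPM to 50.1 and 47.7 CPM (log2 fold change -0.62; edgeR adjusted p = 5.57e-06). DESeq2 also called Synm, but it was not called with a preset variation of 20%. Sync, the syncoilin gene, fell from 4.49 to 2.85 and 2.25 CPM (log2 fold change -0.81; edgeR adjusted p = 0.0349), and neither DESeq2 nor the preset variation of 20% called it. Among type III genes outside the 7, the muscle filament gene Des and the astrocyte filament gene Gfap had at most 30 reads in any library and did not pass. The 3 lamin genes, which encode the filaments of the nuclear envelope, were all called higher, as were 24.3% of all genes tested. Lmnb1 rose from 66.3 to 160 and 177 CPM (log2 fold change 1.34 ± 0.07 SE; edgeR adjusted p = 4.49e-10). Lmna and Lmnb2 had log2 fold changes of 0.48 and 0.54, and of the 3 only Lmnb1 was called with a preset variation of 20%. Iffo1 was called higher (log2 fold change 0.31) but not by DESeq2, and Iffo2 was not called. Of the keratins of simple epithelia, Krt7, Krt8, Krt18 and Krt19 were tested and 0 of 4 were called by edgeR or DESeq2. Their edgeR adjusted p lay between 0.340 and 0.991, with 0 of 4 at an unadjusted p under 0.05. Of all genes tested, edgeR called 50.1% in either direction. Of the remaining genes on these lists, Bfsp1 had 6, 1 and 0 reads in the control, clone 1 and clone 2, Bfsp2 had 3, 8 and 2, Krt20 had 5, 6 and 4, and Krt23 had 1 in each, and none of these 4 passed the filter on low counts.

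**Figure D4:**
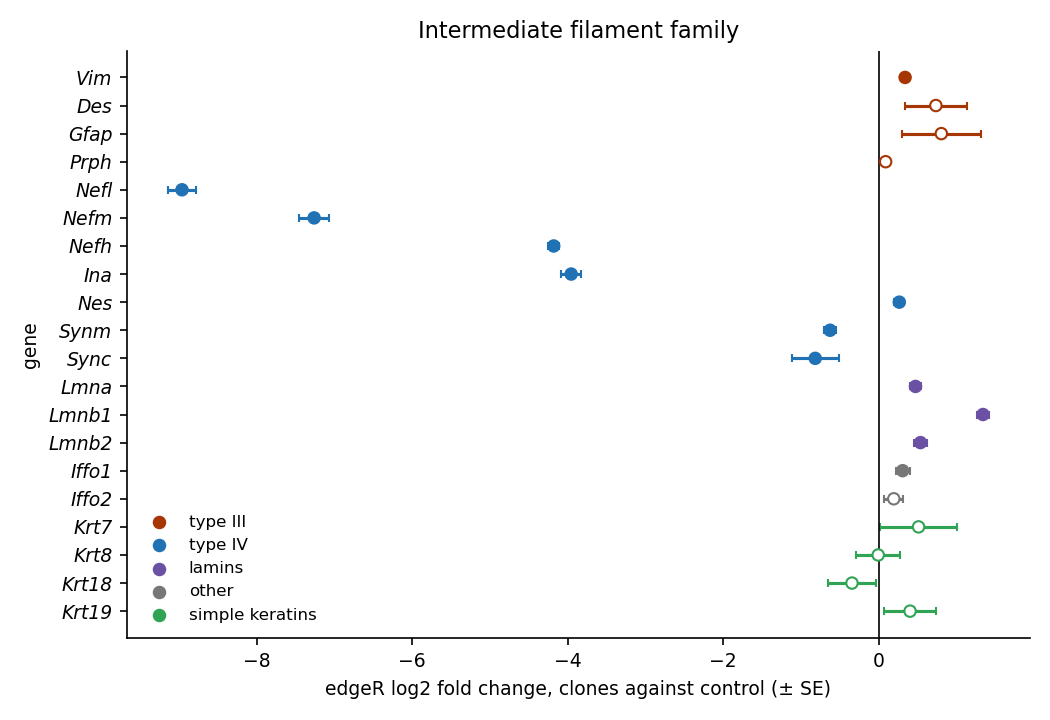
EdgeR log2 fold change of each tested intermediate filament gene, clones against control, with bars for ± SE, which can be narrower than counting error. Filled points passed an adjusted p of 0.05 and open points did not. The falls of Nefl, Nefm, Nefh and Ina, from -8.96 to -3.95, exceed every other change in the family.

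The genes whose 3-library pattern was most like that of a member were found by the distance between their log2 ratios to the control in clone 1 and clone 2, among 10137 genes that averaged 5 CPM or more. For Ina they were Adgra1 (distance 0.06) and Lrp11 (0.10), and for Nefh they were Slc10a4 (0.11) and Trim67 (0.13). For Nefm they were Sez6l2 (0.39) and Ppp2r2c (0.42). The nearest to Nefl were Syt4 (1.14) and St8sia3 (1.22), both without a read in either clone, so their distances depend on the prior count of 1. Nes and Vim had 866 and 439 genes within a distance of 0.1, among them the nearest, Mex3a and Sirt3 for Nes and Sec11a and Depdc1b for Vim, so their pattern is shared by many genes. The distance rests on 2 ratios with a common control.

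Genes that handle neurofilaments after transcription were read from further lists, in which shares near those of all genes tested (25.8% lower and 24.3% higher with edgeR, 9.7% and 9.89% with DESeq2) are not results about a list. No list was tested as a whole, and the genes named are described singly. Of 26 genes for kinases and phosphatases of filament heads and tails, 11 were lower (42.3%) and 8 higher (30.8%; median log2 fold change -0.12), and DESeq2 called 5 lower and 2 higher. Cdk5r2, which encodes the p39 activator of the neurofilament kinase CDK5, fell from 112 CPM to 2.41 and 2.16 CPM, whereas the kinase gene Cdk5 itself stood at 48.5, 52.1 and 52.8 CPM and was not called. Mapk10, the neuronal JNK gene, fell from 66.4 to 11.6 and 8.90 CPM, and Camk2b from 15.0 to 1.34 and 1.62 CPM. Gsk3a was called higher (log2 fold change 0.50). Of 13 tested motors and adaptors of axonal transport, 6 were lower (46.2%) and 4 higher (30.8%; median -0.06), or 5 and 4 with DESeq2. The neuronal kinesin genes Kif5c and Kif5a fell from 221 to 90.9 and 88.9 CPM and from 78.0 to 43.4 and 35.5 CPM, while Kif1c rose from 49.0 to 140.1 and 140.6 CPM and Kif5b, the ubiquitous family member, had a log2 fold change of 0.52. Of 14 tested genes for turnover of filament proteins, 5 were lower (35.7%) and 3 higher (21.4%; median -0.07), led by Capns1 (0.53), Trim2 (-0.70), Stub1 (0.44) and Ube2k (-0.24). DESeq2 called 1 of the 14 lower and 2 higher.

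Of 16 genes for proteins reported to bind neurofilament mRNAs, 6 were lower (37.5%) and 5 higher (31.2%; median -0.09), or 5 and 3 with DESeq2. The falls included the neuronal ELAV genes Elavl3 (82.5 CPM to 5.34 and 4.67 CPM), Elavl4 (62.3 to 6.95 and 7.91 CPM) and Elavl2 (18.9 to 3.12 and 3.69 CPM), and the 14-3-3 gene Ywhaz had a log2 fold change of -0.68. Of 12 tested genes for other parts of the neuronal cytoskeleton, 10 were lower (83.3%) and 1 higher (8.33%; median -1.25; 8 and 0 with DESeq2), led by Stmn3 (-8.27), Tubb3 (-1.63), Dpysl3 (-1.69) and Gap43 (-3.55). Among 9 cytolinkers, 2 were lower (22.2%) and 3 higher (33.3%; median -0.09; 1 and 2 with DESeq2, which did not call Ppl): Dst (-0.61) was lower, and Ahnak (0.87), Macf1 (0.52) and Ppl (2.49, from 6 reads in the control) were higher. Of 17 lamin partners of the nuclear envelope 6 were lower (35.3%) and 5 higher (29.4%; median 0.08), among them Lemd3 (-2.85), Lbr (0.78), Sun1 (0.36) and Fnta (-0.31). DESeq2 called Lemd3 and Lbr alone of these 17.

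Markers described together with nestin and vimentin were read against the same shares of all genes tested, 24.3% higher and 25.8% lower. Of 9 tested neural progenitor markers, 4 were higher (44.4%) and 2 lower (22.2%; median 0.22), with Pax6 (0.80), Hes1 (0.89), Notch1 (0.85) and Id1 (0.47) called higher, of which DESeq2 called Pax6, Hes1 and Id1. Msi2 (-0.31) and Id3 (-0.19) were lower, and DESeq2 called neither. With a preset variation of 20% none of these 6 was called. Sox2 had 2, 0 and 3 reads. Of 12 tested mesenchymal markers, 5 were higher (41.7%) and 1, Zeb2 (-0.54), was lower (8.33%; median 0.58). DESeq2 called 4 higher and 0 lower, and the preset variation of 20% called 1 higher. The higher genes included the matrix genes Sparc (615 CPM to 1139.8 and 1296 CPM) and Fn1 (164 to 370.4 and 343 CPM), as well as Itga5 (0.61) and Zeb1 (0.75). The 7 fibroblast markers summed to 96.4, 85.2 and 114 CPM in the control, clone 1 and clone 2, and of 6 tested 2 were lower and 1 higher. Pdgfra, the largest part of the control's sum, stood at 51.7, 43.0 and 45.3 CPM and Thy1 at 13.5, 4.81 and 8.81 CPM, both lower. Col3a1 stood at 9.15, 13.2 and 21.3 CPM and was higher, and Col1a1 (13.4, 14.0 and 23.3 CPM), Col1a2 (7.99, 9.35 and 14.4 CPM) and Dcn (at most 11 reads) did not pass. Lum had 1, 3 and 3 reads. The 3 collagen genes were highest in clone 2, as Vim was. The part of other cell types in the levels of Vim was not tested. Of 13 tested regulators described for neurofilament and peripherin genes, 5 were lower (38.5%) and 4 higher (30.8%; median -0.30; 2 and 3 with DESeq2). Rest, a repressor of neuronal genes, rose from 42.4 to 83.5 and 74.3 CPM, Egr1 rose from 86.2 to 215 and 222 CPM, and the receptor gene Ngfr fell from 313 to 126 and 109 CPM. Neurod1 had 18 reads in the control and none in the clones. Set against a floor of 3 reads over both clones, this is an 11.2-fold fall, which leaves out counting error in the control's 18 reads.

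**Figure D5:**
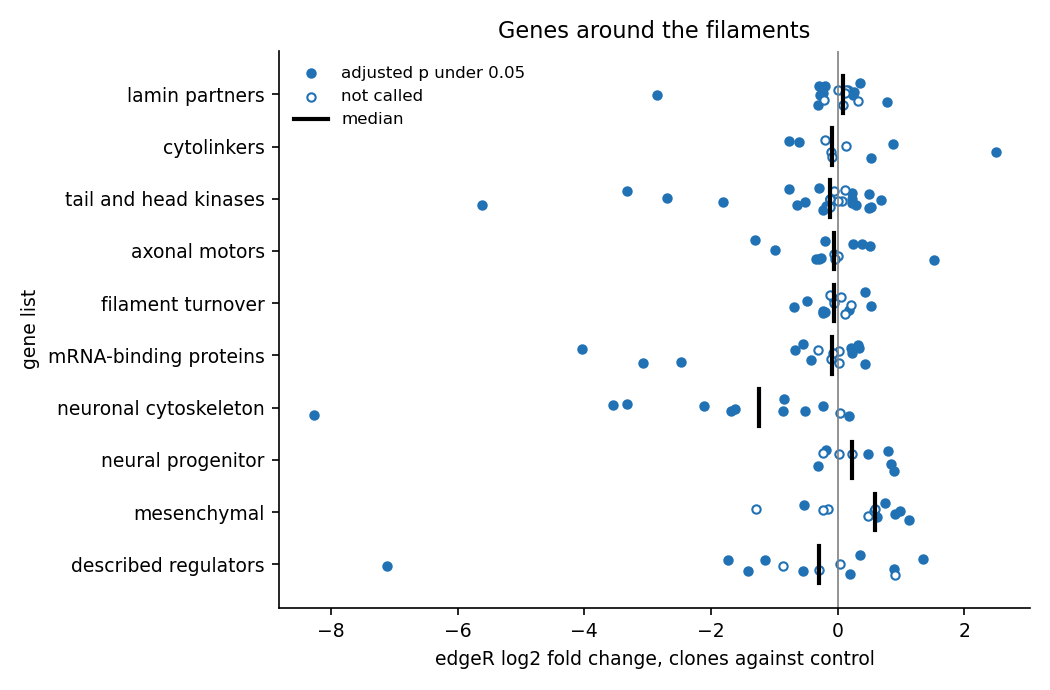
EdgeR log2 fold change of the tested genes on 10 lists around the filaments, clones against control. Each point is a gene, filled where the adjusted p was under 0.05, and black bars are list medians. The median of the neuronal cytoskeleton list lies at -1.25 and that of the mesenchymal list at 0.58, and the Neurod1 point at the far left of the last row is a fitted value that rests on no reads in the clones.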

How the data were processed

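The labels' protocols give a stranded kit for messenger RNA. The deposited counts are raw reads per gene from STAR's GeneCounts mode, per the file headers, which name STAR 2.5, Gencode M16 (Ensembl 91) and GRCm38/mm10. The submitters' processing notes name STAR 2.5.3, bcl2fastq and DESeq2. The deposited RPM columns are the authors' scaling to mapped reads, per the file headers. For all 22976 genes in each library they equal the deposited count over the library's summed gene counts, within 0.05 RPM. The authors' deposited table, made with DESeq2 per the file headers, gives a fold ratio, a log2 fold change, its standard error, a p-value and an adjusted p-value.

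Groups came from the labels (1 control, 2 clones). Low counts were removed with filterByExpr, and the 13705 remaining genes were tested with edgeR 4.0.16 in R 4.3.3 (TMM, quasi-likelihood F test, legacy option off, two-sided, Benjamini-Hochberg over all genes). Since the control group has 1 library, enough reads in 1 library sufficed to pass the filter. With 3 libraries and 2 groups, 1 residual degree of freedom remains. A standard error is the log2 fold change over the square root of F, and it can be smaller than counting error where reads are few. The fit was tested on simulated data. Alternatives used limma 3.58.1, DESeq2 1.42.0, RLE factors, other filters and fits, preset variations of 20% and 40%, and single clones. Intervals are 95% and, like floors of 3 counts, cover counting error only, since reads are not independent molecules. Lengths came from Gencode M21, which covered 13692 tested genes.

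The 7 genes, the 15 gene lists and the 10 marker lists were chosen with earlier results of these data known. Genes named are the members, all genes of the intermediate filament lists, the 4 with the lowest p of each other list, and the 2 nearest in pattern to each called member. Cdk5, Sox2, Msi2, Id3, Zeb2, the motor neuron markers and the fibroblast markers were added after their values were seen.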

Additional observations from a re-analysis of the deposited data

How the results depend on the processing

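The low-count filter and the assumed spread mattered most. Without the filter, edgeR called 0 members lower and 0 higher, and 4 genes lower and 0 higher in all, although 6 of 7 members and 7087 of 22976 genes had an unadjusted p under 0.05, and the members' fold changes kept their direction. Without the filter and with the legacy fit, a pair of choices tried after seeing the data, edgeR called 0 members in either direction and 0 genes lower and 0 higher, with 6560 genes at an unadjusted p under 0.05, while DESeq2 called 4 members lower. The cause was not tested. DESeq2 called 1 member higher, and 1364 genes lower and 1392 higher. A preset variation of 20% gave 0 members higher, 992 genes lower and 156 higher. A preset variation of 40% gave 0 members higher, 388 genes lower and 9 higher. In both of these the 4 falls of Nefl, Nefm, Nefh and Ina were called, as they were with RLE factors, limma-voom, a mean CPM of at least 1, and the legacy and robust fits with the filter, which also left Nes and Vim higher. With the shortest annotated transcripts, Nefl, Nefm, Nefh and Ina made up 12.7% of the control's level per kilobase instead of 14.3%. With a clone left out there is no residual spread and no test, and log2 fold changes ran from -10.4 to -8.25 for Nefl and from 0.28 to 0.40 for Vim. No paired analysis was possible because the control is a single library and no label links it to either clone. Depth limits Nefl and Nefm, which rest on 1 to 5 reads in each clone.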

Other observations

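Keratin genes that did not pass the filter on low counts were near the limit of detection in every library, but their reads were not spread evenly. Many are keratins of stratified epithelium or hair, but Krt20 and Krt23 of simple epithelia and the entry Krt8-ps are among them. Of 30 keratin entries, 26 did not pass the filter on low counts, and these summed to 32 reads in the control, 88 in clone 1 and 16 in clone 2. The highest count was in clone 1 for 16 of the 26. The same share over all genes that failed the filter was not computed, so the excess is not shown to be particular to keratins. Krt14 had 1, 10 and 1 reads in the control, clone 1 and clone 2, Krt17 had 0, 8 and 0, Krt5 had 1, 7 and 1, and Krt25 had 2, 8 and 1. No test was run on these counts, which come from 1 library each and were singled out after their values were seen.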
